A study of Sus scrofa with 15 samples.

Results

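Genes of the extracellular matrix, of the integrins that tie cells to it and of the proteases and inhibitors that remodel it were followed in the backfat of Iberian pigs. Members were taken by gene symbol alone, from probe sets with a single platform symbol (a probe set is the group of short probes that reports a transcript on the array). The symbol began with COL and a digit, MMP, TIMP, ADAM, LAMA, LAMB, LAMC, ITGA, ITGB, FBN, FBLN, SPARC, THBS, LOX, SERPIN or CTS, or was FN1, TNC, DCN, LUM, BGN, VCAN, POSTN or ELN. The rule found 38 of 3255 tested probe sets, which stood for 28 of 1260 named genes. For the 7 genes with several probe sets, the one with the highest mean represents the gene unless stated. In every probe set of the table, at least 3 of the 15 animals lay 1.5-fold or more from the median, and matrix genes of smaller variation are not analysed here. No basement membrane collagen or laminin was among the members.

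All 15 animals were castrated male Iberian pigs. The control group of 7 received a standard diet and the high-oleic group of 8 a diet supplemented with oleic acid, a monounsaturated fatty acid abundant in pig fat, from 28 kg of live weight until slaughter after 24 weeks. The high-oleic feed held 3360 kcal per kg and the control feed 3130 kcal per kg, and control animals were given 10% more feed so that energy and protein intake matched. Backfat, labelled as its inner layer, was taken at the last rib and hybridised to 1 array per animal, and the animals served as replicates. Live weight was 112 to 133 kg in control animals and 104.5 to 116 kg in high-oleic animals. The difference in means was -8.03 kg (two-sided exact permutation p = 0.00435, 6435 splits), so diet and weight cannot be fully told apart.

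The samples were whole tissue, in which fewer cells of a type and less RNA per cell cannot be told apart. Of 10 adipocyte markers 2 were measured, LEP at log2 signals of 10.29 to 12.52 and PNPLA2 at 8.11 to 9.37. High-oleic animal 8 stood apart from the other animals. Its signal from transcripts spiked into the RNA was 7.29, against at most 6.503 in the other 14 animals. It held the highest value of 441 of the 1260 named genes, and values without it are given beside the results that moved with it most.

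The extracellular matrix is a network of collagens, elastic fibres, glycoproteins and proteoglycans laid down mainly by fibroblasts and, in fat, also by adipocyte precursors and adipocytes. Collagens and elastic fibres are stabilised by cross-links that enzymes of the lysyl oxidase family start. Integrins bind cells to this network, while metalloproteases and cathepsins cut its proteins and TIMPs and many serpins restrain proteases. In adipose tissue this remodelling accompanies the growth of fat cells, and CTSS and the leukocyte integrin beta chain ITGB2 are known from macrophages.

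None of the 28 genes passed the adjusted test for diet, which does not show that the diets were equal. In limma with Benjamini-Hochberg adjustment over 3255 probe sets, 0 of the 28 genes had an adjusted p under 0.05, as in the whole table, where percent called was 0. At an unadjusted p under 0.05, limma called 0 of the 28, against 3.93% of all probe sets. That count was 3 without high-oleic animal 8 (FBN1, TNC and VCAN, against 4.02% of the table) and 3 without control animal 4 (FBN1, VCAN and ADAMDEC1, against 5.44%). It was 4 with array weights (FBLN1, FBN1, TNC and VCAN, against 6.05%), 2 with the spiked signal as covariate (FBN1 and VCAN, against 5.28%) and 3 among animals of 109.5 to 118 kg (TNC, VCAN and TIMP1, against 4.85%). All of these estimates were negative, and the smallest limma adjusted p of a member in these fits was 0.613. Estimates were higher on the high-oleic diet in 14 genes and lower in 14, and 46.8% of all probe sets were higher. The median difference, high-oleic minus control, was 0.01 on the log2 scale, against -0.03 over the table. The direction of the members' median turned under several settings. It was -0.14 without high-oleic animal 8 (-0.02 over the table), -0.18 with array weights, -0.15 with the spiked signal as covariate and -0.26 among animals of 109.5 to 118 kg. That weight window left out control animal 5 and high-oleic animals 1, 2, 6 and 8. These high-oleic animals had the highest signals of their diet in ITGB2, SERPINB1, TIMP1 and CTSH. Their part in the values of the window was not tested. Leaving out high-oleic animal 8 turned the estimates of 9 genes, COL1A2, LOXL4, THBS3, ITGA5, SERPINB1, TIMP1 and CTSC to lower and ADAM9 and ADAM10 to higher. For 18 of the 28 genes (64.3%) the 95% interval lay within 2-fold in either direction, against 74.4% of all probe sets. The exact permutation test gave 1 member under an unadjusted p of 0.05, the fibrillin gene FBN1, against 136 probe sets in the table, and 0 after adjustment. The ranges of the diet groups overlapped in all 28 genes, and 0.0307% of all probe sets had ranges that did not.

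**Figure D1:**
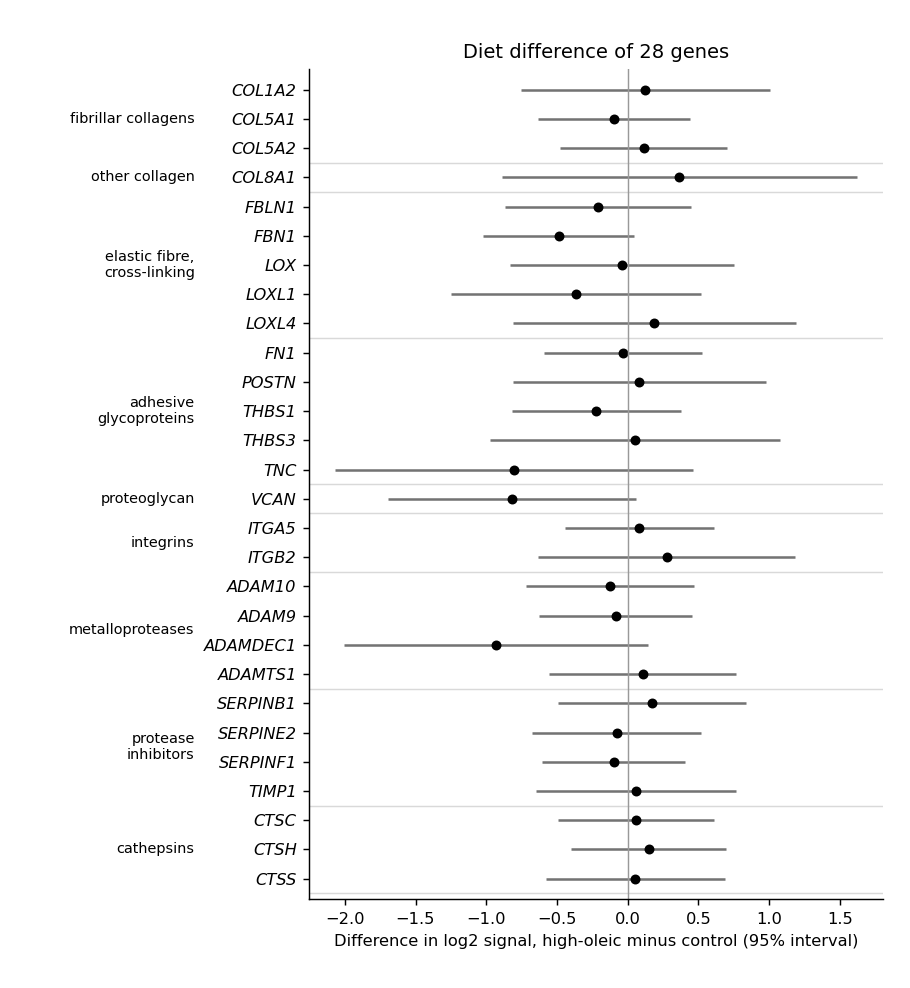
Difference in log2 signal between the diets (high-oleic minus control, x axis) for the 28 genes in their role groups (y axis), as points with 95% intervals from limma over 7 control and 8 high-oleic animals. All 28 intervals include 0, and the lowest estimates are those of ADAMDEC1 at -0.93, VCAN at -0.82 and TNC at -0.80.

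The fibrillar collagens, which form the tensile fibres of the matrix, were represented by COL1A2, COL5A1 and COL5A2. COL1A2, the alpha 2 chain of type I collagen, had a lowest, median and highest log2 signal of 7.00, 8.96 and 10.18 in control animals and 7.75, 8.58 and 10.01 in high-oleic animals. The groups overlapped, with control animal 5 and high-oleic animal 8 at the top and control animal 4 at the bottom. The difference was 0.13 (95% interval -0.75 to 1.00, limma adjusted p = 0.999). COL5A1 and COL5A2 encode chains of type V collagen, which regulates fibre diameter. COL5A1 ranged from 10.23 to 11.12 (median 10.75) in control animals and from 10.10 to 11.72 (median 10.43) in high-oleic animals. Its difference was -0.10 (95% interval -0.64 to 0.44), and 0.02 on its dimmer probe set. COL5A2 lay between 7.15 and 8.69 (median 8.29) on the control diet and between 7.46 and 8.86 (median 8.34) in high-oleic animals, a difference of 0.11 (95% interval -0.48 to 0.70).

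COL8A1, a short-chain collagen of vessel walls and remodelling tissue, had the widest spread of the collagens. Its mean signal of 4.13 was so low that the filter on dim probe sets, tried as an alternative, removed it, together with THBS3. Control animals gave 2.66, 3.10 and 7.15 as lowest, median and highest, and high-oleic animals 3.04, 3.94 and 6.26. A single control animal, number 5, lay above every other animal of the study. The difference of 0.36 had a 95% interval of -0.89 to 1.62. Leaving out control animal 5 gave 0.90, leaving out high-oleic animal 8 gave 0.08, and live weight in the fit gave 1.39.

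In the elastic fibre and cross-linking group, 4 of 5 genes had a lower estimate on the high-oleic diet, and none passed the test. FBN1, the main structural protein of microfibrils, ranged from 10.14 to 11.17 (median 10.65) in control animals. In high-oleic animals it ranged from 9.16 to 10.74 (median 10.34), and 1 of these 8 lay above the control median. The difference was -0.49 (95% interval -1.02 to 0.05, limma adjusted p = 0.999, exact permutation p = 0.0488 before adjustment), and -0.32 with live weight in the fit. FBLN1, fibulin 1, which binds elastin and fibronectin, differed by -0.21 (95% interval -0.87 to 0.45).

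The cross-linking enzymes were LOX, LOXL1 and LOXL4. LOX, lysyl oxidase, ranged from 6.63 to 9.24 (median 7.33) in control animals and from 6.65 to 9.05 (median 7.30) in high-oleic animals, a difference of -0.04 (95% interval -0.83 to 0.75). LOXL1, which acts on elastin, lay between 5.81 and 8.61 (median 7.13) on the control diet and between 5.78 and 8.69 (median 6.66) on the high-oleic diet. Its difference was -0.37 (95% interval -1.25 to 0.52), and it turned to 0.07 with live weight in the fit. LOXL4 gave 5.66, 6.29 and 8.42 as lowest, median and highest of the control group and 5.43, 6.31 and 9.33 of the high-oleic group, a difference of 0.19 (95% interval -0.81 to 1.19). In LOXL4 the 13 animals other than control 5 and high-oleic 8 lay at or below 6.78. The LOXL4 difference turned to -0.21 without high-oleic animal 8.

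The adhesive glycoproteins FN1, TNC, POSTN, THBS1 and THBS3 link cells to the fibres or modulate that contact. FN1, fibronectin, ranged from 12.09 to 13.04 (median 12.76) in control animals and from 11.58 to 13.55 (median 12.79) in high-oleic animals, a difference of -0.03 (95% interval -0.59 to 0.52). TNC, tenascin C, a glycoprotein known from wound repair, spread over more than 3 log2 units in each group, with 4.25, 6.57 and 7.71 in control animals and 3.41, 5.31 and 8.26 in high-oleic animals. High-oleic animal 8 was the highest of all 15 and high-oleic animal 4 the lowest. The TNC difference was -0.80 (95% interval -2.07 to 0.46), and it was -1.21 without high-oleic animal 8, -0.35 when adjusted for live weight and -1.39 among animals of 109.5 to 118 kg.

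THBS1, thrombospondin 1, an activator of latent TGF-beta, ranged from 11.56 to 12.89 (median 12.19) on the control diet. On the high-oleic diet it ranged from 11.22 to 12.92 (median 12.12), a difference of -0.22 (95% interval -0.82 to 0.38). Its other probe sets differed by -0.46 and -0.41. THBS3, a related thrombospondin, was between 4.49 and 5.11 in 7 high-oleic animals and 8.62 in high-oleic animal 8, and between 4.58 and 5.78 in control animals. Its second probe set gave the same animal 7.39, against at most 5.56 elsewhere. The THBS3 diet difference was 0.05, and -0.07 on the second probe set. POSTN, periostin, which binds collagen and supports its cross-linking, ran from 5.57 to 8.14 in control animals and from 4.998 to 7.88 in high-oleic animals. Unlike most members, POSTN was lowest in high-oleic animal 8.

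VCAN, versican, a large proteoglycan that binds hyaluronan, was the only member in the proteoglycan role group. Its lowest, median and highest signals were 7.03, 8.24 and 9.19 in control animals and 5.38, 7.43 and 8.86 in high-oleic animals. Only 1 high-oleic animal, number 8, lay above the control median, and high-oleic animal 2 was the lowest of the 15. The difference was -0.82 (SE 0.42, 95% interval -1.70 to 0.06, limma adjusted p = 0.999). A second probe set differed by -0.75, while the dimmest, at 2.76 to 5.43, differed by 0.02. Leaving out high-oleic animal 2 brought the VCAN difference to -0.54, leaving out high-oleic animal 8 brought it to -1.04, and adjusting for live weight gave -0.53.

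Of the integrins, ITGA5, the alpha chain of the fibronectin receptor, ranged from 6.30 to 7.20 (median 7.03) in control animals and from 6.32 to 7.79 (median 6.96) in high-oleic animals. Its difference was 0.08 (95% interval -0.45 to 0.61). ITGB2, the beta chain shared by the leukocyte integrins, ranged from 6.66 to 8.38 (median 7.54) in control animals. In high-oleic animals it ranged from 6.01 to 9.29 (median 7.95), so that the control range lay inside the high-oleic range. The difference was 0.27 (95% interval -0.63 to 1.18). Among animals of 109.5 to 118 kg, 6 control and 4 high-oleic, it turned to -0.65, and without high-oleic animal 8 it was 0.06. The high-oleic animals outside that window, numbers 1, 2, 6 and 8, had the highest ITGB2 signals of their diet.

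The metalloproteases were ADAM9 and ADAM10, membrane-bound sheddases, ADAMDEC1, a secreted member known from macrophages and dendritic cells, and ADAMTS1, which cuts versican. ADAMDEC1 had lowest, median and highest signals of 5.44, 7.33 and 8.69 in control animals and 5.11, 5.75 and 8.22 in high-oleic animals. High-oleic animals 3 and 4 lay above the control median and the other 6 below it. The difference was -0.93 (SE 0.52, 95% interval -2.01 to 0.15, limma adjusted p = 0.999). It was -0.41 with live weight in the fit and -0.16 among animals of 109.5 to 118 kg. ADAM9 ranged from 9.77 to 11.04 (median 10.39) in control animals and from 9.49 to 10.96 (median 10.47) in high-oleic animals, and ADAM10 from 5.89 to 7.19 and from 5.43 to 7.43. ADAMTS1 ranged from 8.68 to 10.75 (median 9.85) and from 8.93 to 10.68 (median 10.13), and its lowest animal was control animal 5 on each of its probe sets. The differences of ADAM9, ADAM10 and ADAMTS1 were -0.08, -0.13 and 0.11.

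In the protease inhibitor group, formed by the symbols TIMP and SERPIN, the diet differences lay between -0.10 and 0.17. SERPINF1, also called PEDF, a secreted serpin abundant in fat, ranged from 11.12 to 12.51 (median 11.82) in control animals. In high-oleic animals it ranged from 11.37 to 12.57 (median 11.72), a difference of -0.10 (95% interval -0.61 to 0.41). SERPINB1, an inhibitor of neutrophil proteases, differed by 0.17 (95% interval -0.49 to 0.84), with ranges of 7.802 to 8.995 and 7.36 to 9.59. It turned to -0.41 among animals of 109.5 to 118 kg, to -0.03 with live weight in the fit and to -0.0063 without high-oleic animal 8. TIMP1, an inhibitor of matrix metalloproteases, lay between 8.36 and 9.11 (median 8.84) on the control diet and between 7.53 and 10.16 (median 8.69) on the high-oleic diet. All 7 control animals of TIMP1 fell inside the high-oleic range, and its difference of 0.06 turned to -0.62 among animals of 109.5 to 118 kg. SERPINE2, which inhibits thrombin and plasminogen activators, ranged from 6.003 to 8.01 (median 7.23) and from 6.64 to 7.86 (median 7.01), a difference of -0.08 (95% interval -0.68 to 0.52).

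The 3 cathepsins had positive differences of 0.05 to 0.15, and none passed the test. Among animals of 109.5 to 118 kg all 3 turned, to -0.26 for CTSH, -0.40 for CTSS and -0.27 for CTSC. That window left out high-oleic animals 1, 2, 6 and 8, the highest of their diet in CTSH, and kept high-oleic animal 4, the lowest. Without high-oleic animal 8 CTSH was 0.03 and CTSC -0.03. CTSH, a lysosomal aminopeptidase, ranged from 12.04 to 12.68 (median 12.17) in control animals and from 11.57 to 13.27 (median 12.57) in high-oleic animals, a difference of 0.15 (95% interval -0.40 to 0.69). CTSS, an elastin-cutting protease of antigen-presenting cells, ranged from 11.89 to 13.02 (median 12.64) and from 11.58 to 13.48 (median 12.45), a difference of 0.05 (95% interval -0.58 to 0.69). High-oleic animals 1 and 2 gave its highest signals and high-oleic animal 4 the lowest. CTSC, which activates granule proteases of leukocytes, differed by 0.06 on its brighter and 0.51 on its dimmer probe set.

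**Figure D2:**
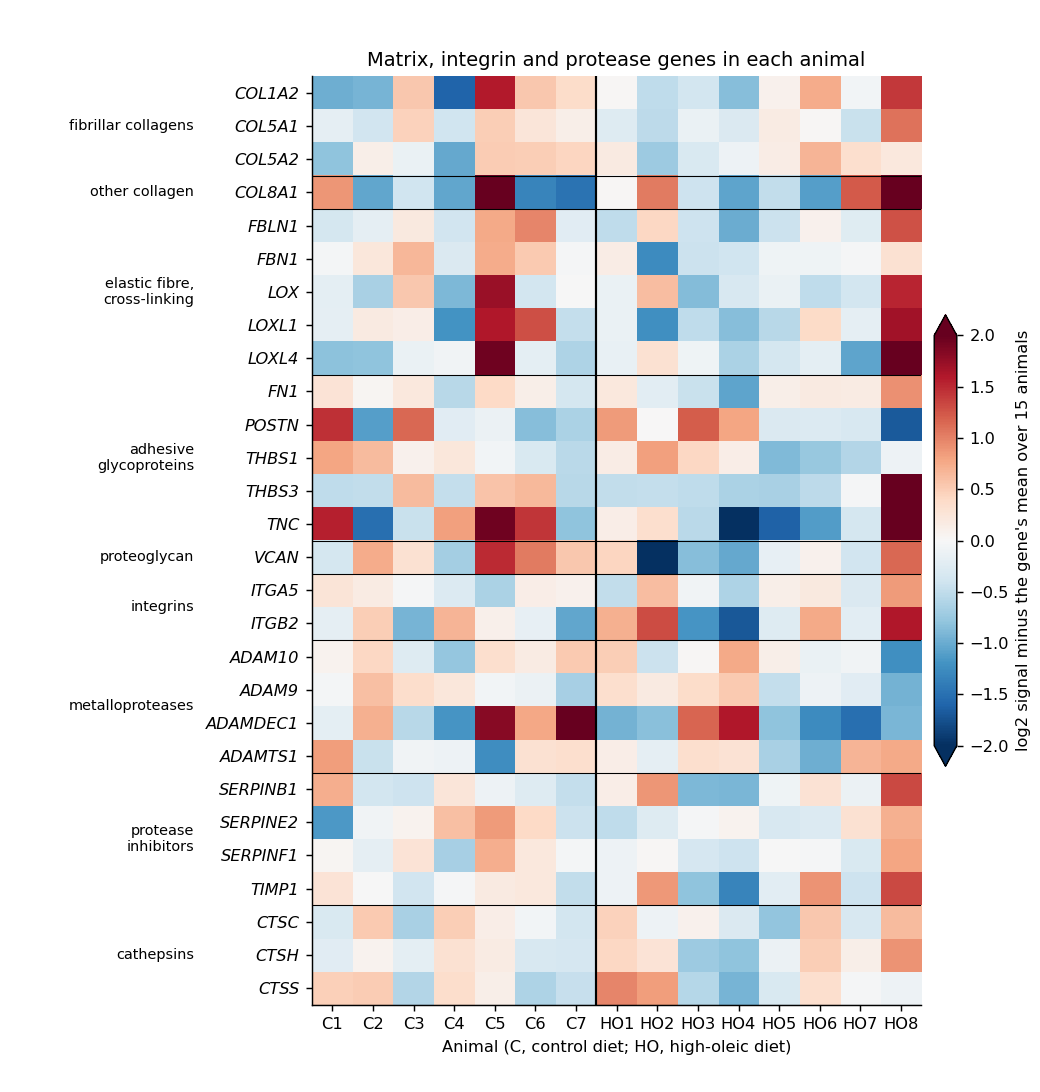
Log2 signal minus the gene's own mean over the 15 animals (colour, capped at 2 in either direction) for the 28 genes (rows, by role group) in 7 control (C) and 8 high-oleic (HO) animals (columns). The columns of control animal 5 and high-oleic animal 8 are red through most rows from COL1A2 to VCAN, while HO4 is blue from ITGB2 to CTSS except in metalloproteases and SERPINE2.

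Control animal 5, the heaviest at 133 kg, and high-oleic animal 8, at 106.5 kg, held the top 2 values in 11 of the 28 genes (39.3%), against 66 of 1260 named genes (5.24%). This pair was picked after the values were seen, so the shares are a description. The 11 genes were COL1A2, COL5A1, COL8A1, LOX, LOXL1, LOXL4, FN1, TNC, VCAN, SERPINE2 and SERPINF1, and 0 integrins, metalloproteases or cathepsins were among them. LOX was 9.24 and 9.05 in these animals and at most 8.14 in the other 13. SERPINF1 was 12.51 and 12.57, against at most 12.05, and COL1A2 was 10.18 and 10.01, against at most 9.33. The fibroblast markers outside the members (THY1, DPT, MFAP5 and S100A4, 4 of 8 listed) had their highest mean deviations in the same animals, 1.31 in high-oleic animal 8 and 0.73 in control animal 5. In control animal 5 THY1 and S100A4 were the highest of the control group. DPT, at 10.42, lay at the control median there, and MFAP5, at 11.32, below the control maximum of 11.68. DPT and MFAP5 are matrix proteins themselves. The part of fibroblasts in the pattern was not tested.

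High-oleic animal 8 was the highest animal in 14 of the 28 genes (50.0%), against 441 of the 1260 named genes, and the lowest in POSTN, ADAM10 and ADAM9 (10.7%), against 16.1% of named genes. High-oleic animal 4 was the lowest in 8 genes (28.6%), against 9.13% of all named genes. These were FBLN1, FN1, TNC, ITGB2, SERPINB1, TIMP1, CTSH and CTSS. Its macrophage marker score was -1.13, the lowest of the 15, and its fibroblast marker score -0.92, also the lowest. High-oleic animal 2 was the lowest in COL5A1, FBN1, LOXL1 and VCAN (14.3%, against 10.2% of named genes), and its macrophage score of 0.76 was exceeded only by high-oleic animal 8.

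The slope of signal on live weight at fixed diet asks whether heavier pigs had more or less of these transcripts. No member passed this test, and the largest slope, that of COL8A1, turned without control animal 5. In limma, 0 of 28 genes had an adjusted p under 0.05 (percent called over the table, 0). At an unadjusted p under 0.05 limma gave 2 of 28, against 3.81% of all probe sets. Slopes were positive in 17 genes and negative in 11, and 54.4% of all probe sets were positive. The median slope was 0.13 log2 units per 10 kg, against 0.04 over the table, and -0.42 without control animal 5.

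The 2 members under an unadjusted 0.05 were COL8A1 and SERPINE2, both with positive slopes, as had 2.49% of all probe sets, and each with a limma adjusted p of 0.916. COL8A1 had a slope of 1.28 per 10 kg (95% interval 0.21 to 2.35), which turned to -0.58 without control animal 5. SERPINE2 had a slope of 0.57 (95% interval 0.04 to 1.09), and 0.69 without that animal. Among control animals alone the SERPINE2 slope was 0.63, and control animal 1, at 112.5 kg, gave its lowest signal, 6.003. On the high-oleic diet its highest signal, 7.86, was that of animal 8, at 106.5 kg.

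By role, slopes were positive in 3 of 3 fibrillar collagens and 5 of 5 elastic fibre and cross-linking genes, and negative in 2 of 2 integrins and 3 of 3 cathepsins. COL1A2 had a slope of 0.67 (95% interval -0.13 to 1.47) and LOXL1 of 0.55 (95% interval -0.28 to 1.37). Without control animal 5 these were -0.26 and -0.31. ADAMTS1 had a slope of -0.44 (95% interval -1.06 to 0.18), which turned to 0.33 without control animal 5. ITGA5 had a slope of -0.39 (95% interval -0.87 to 0.10), THBS1 of -0.31 and SERPINB1 of -0.25, and these were -0.41, -0.81 and -0.84 without that animal. With the animal number as a block, which leaves out high-oleic animal 8, THBS1 and SERPINB1 turned to 0.44 and 0.06. Within the high-oleic animals, which spanned 104.5 to 116 kg, the median slope of the members was -0.54, and within the control animals it was 0.27. High-oleic animal 8, at 106.5 kg, held the highest value of 14 of the 28 genes. Leaving it out of the fit over both diets gave a median slope of 0.22, and the slope within high-oleic animals was not fitted without it. The difference in slope between the diets was not tested.

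**Figure D3:**
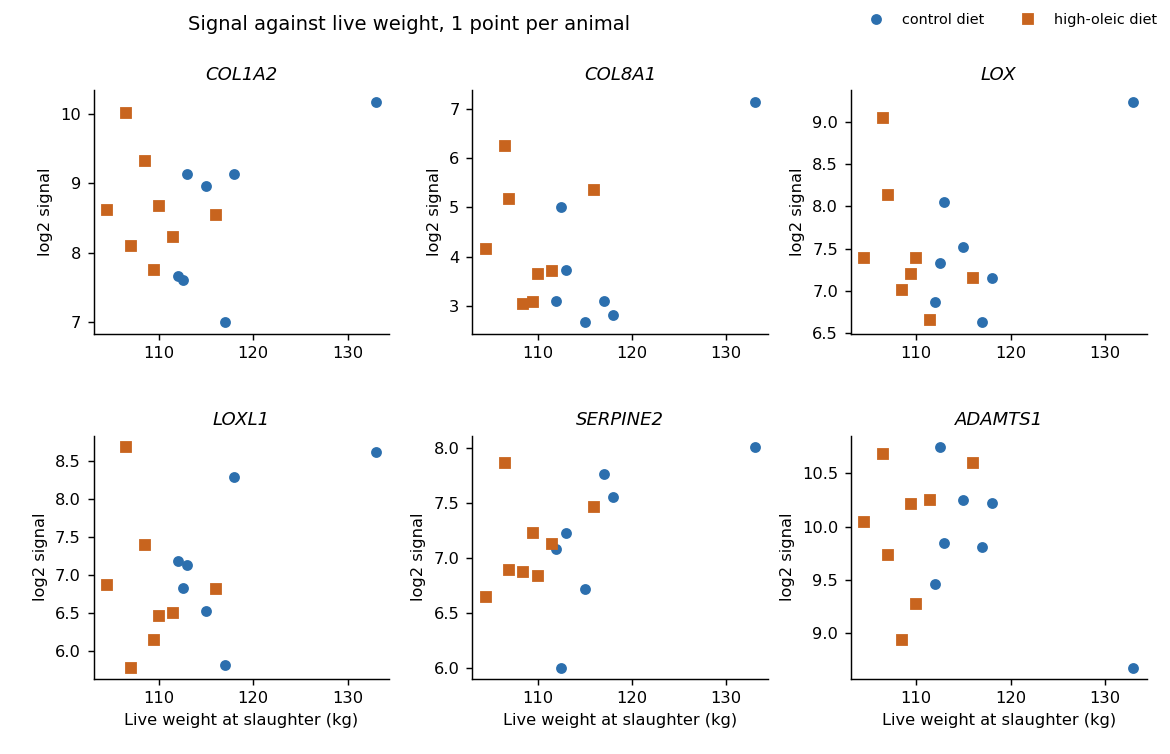
Log2 signal (y axis) against live weight at slaughter in kg (x axis) for COL1A2, COL8A1, LOX, LOXL1, SERPINE2 and ADAMTS1, 1 point per animal, with 7 control animals as circles and 8 high-oleic animals as squares. The point at 133 kg is control animal 5, the highest in COL1A2, COL8A1, LOX and SERPINE2 and the lowest in ADAMTS1.

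The members varied together between animals more than genes of the table did at the median. Correlations were taken between residuals from the diet means over the 15 animals, which share arrays, and are descriptions. The median Pearson r was 0.236 over the 378 pairs of members and 0.0407 over all 793170 pairs of named genes. Pairs within a role group had a median of 0.456 (39 pairs) and pairs between groups 0.203 (339 pairs). Without high-oleic animal 8 these medians were 0.125 for all pairs of members, 0.368 within role groups and 0.0998 between them, and 0.022 over the table. An r above 0.5 was found in 28.3% of the member pairs and 12.7% of all pairs, and in 19.0% and 9.92% without that animal. After quantile normalization the median r was 0.121 over the pairs of members and 0.0129 over the table. The members were also brighter, with a median mean signal of 8.23 against 6.54 over all tested probe sets. The part of brightness in these correlations was not tested.

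Role groups differed in how closely their members followed each other. The median r was 0.746 among the fibrillar collagens, 0.678 among the elastic fibre and cross-linking genes and 0.611 among the cathepsins. It was 0.364 among the TIMP and SERPIN genes, 0.0355 among the adhesive glycoproteins and 0.027 among the metalloproteases. Without high-oleic animal 8 these 6 medians were, in the same order, 0.789, 0.468, 0.572, 0.0944, 0.210 and 0.02. The TIMP and SERPIN genes then lay below the adhesive glycoproteins. Fibrillar collagens also followed the elastic fibre and cross-linking genes, with a median r of 0.691 over 15 pairs (0.608 without high-oleic animal 8). They had a median of 0.0385 with the cathepsins, which turned to -0.168 without that animal.

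**Figure D4:**
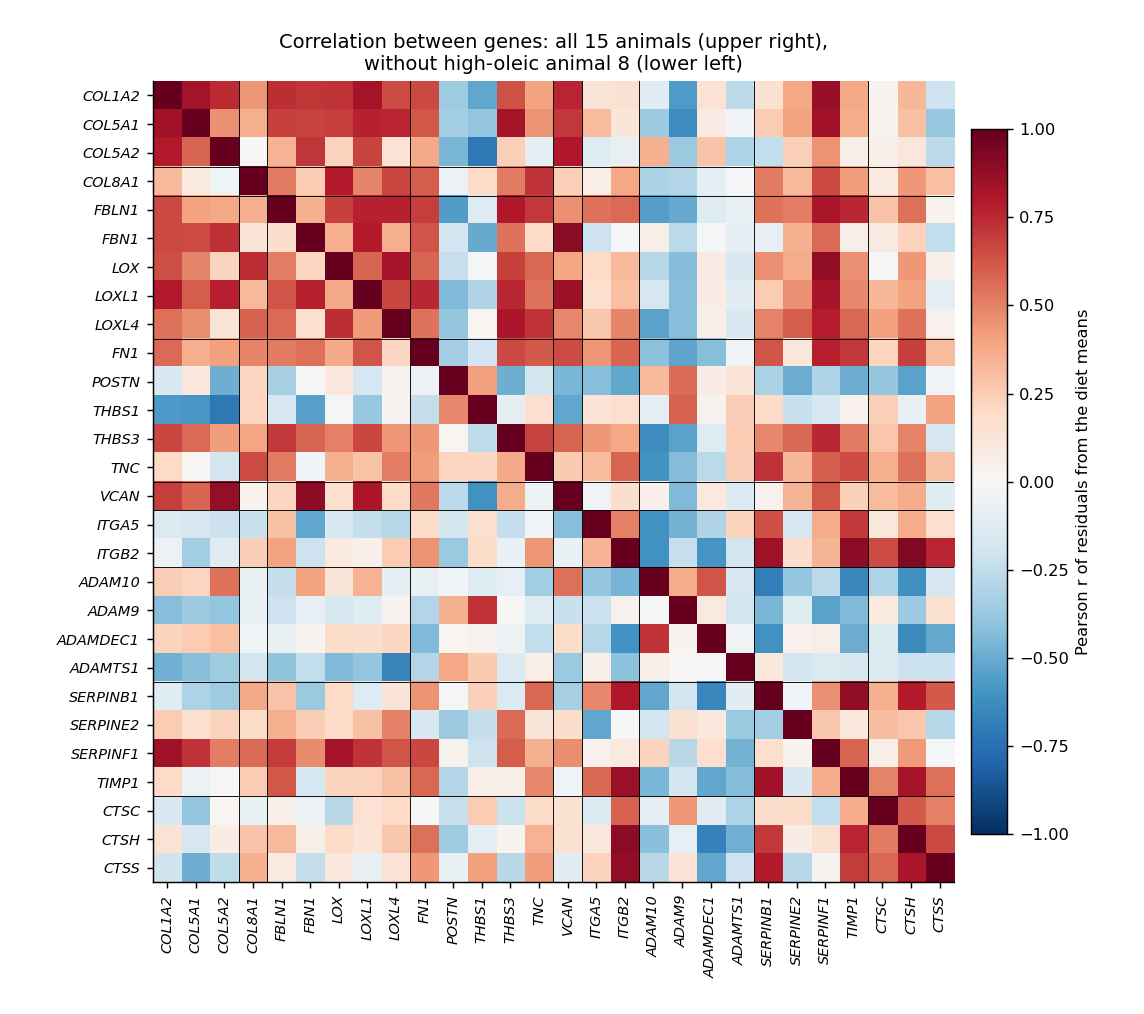
Pearson r between residuals from the diet means for every pair of the 28 genes, ordered by role group, over all 15 animals (upper right) and without high-oleic animal 8 (lower left). Red blocks cover the fibrillar collagens with FBN1, LOXL1 and VCAN and, apart from them, ITGB2 with SERPINB1, TIMP1 and the cathepsins. The blue rows of ADAM9, ADAM10 and POSTN fade in the lower left.

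The 6 closest pairs were chosen by their size. They joined ITGB2, CTSH, TIMP1 and SERPINB1, then FBN1 and VCAN, and SERPINF1 with LOX and COL1A2. ITGB2 had an r of 0.922 with CTSH and 0.893 with TIMP1, and TIMP1 had 0.889 with SERPINB1. FBN1 followed VCAN with an r of 0.906, and SERPINF1 followed LOX with 0.890 and COL1A2 with 0.871. Without high-oleic animal 8 these 6 values lay between 0.834 and 0.902. Within the 7 control animals ITGB2 had an r of 0.806 with CTSH and 0.645 with TIMP1. Within the 8 high-oleic animals these were 0.951 and 0.9501.

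Some members ran against the rest. The lowest r of all pairs was -0.715, between COL5A2 and THBS1, and it was -0.717 without high-oleic animal 8. ADAM9, POSTN and ADAM10 had median correlations of -0.42, -0.35 and -0.31 with the other 27 members. Without high-oleic animal 8 these were -0.09, -0.03 and -0.08. ADAM10 and ADAMDEC1 had an r of 0.626 with each other. ADAMDEC1 had an r of -0.636 with CTSH and -0.594 with ITGB2, and of -0.678 and -0.609 without high-oleic animal 8.

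Of 34 pairs chosen for known partnership 4 were measured, and permutation tests were adjusted over these 4. CTSS and ITGB2, both used by leukocytes, gave r = 0.759 (permutation p = 0.00111, adjusted p = 0.00444) and rho = 0.725 (permutation p = 0.00306). Without high-oleic animal 8 r was 0.885. After quantile normalization r was 0.628 and the test was no longer passed (adjusted permutation p = 0.0535). Without the 2 animals farthest from the median r was 0.705, and within diets it was 0.751 over the 7 control animals (exact permutation p = 0.0702) and 0.773 over the 8 high-oleic ones (exact permutation p = 0.0270). FN1 and TNC gave r = 0.617 (permutation p = 0.0140, adjusted p = 0.0280) and rho = 0.604 (permutation p = 0.0199). This relation rested on the 2 farthest animals, as r was 0.197 without them, and it was 0.417 without high-oleic animal 8 and 0.343 after quantile normalization. COL5A1 and COL5A2, chains of 1 collagen, gave r = 0.456 (permutation p = 0.0868) and rho = 0.507, and r was 0.585 without high-oleic animal 8. FN1 and ITGA5, ligand and receptor chain, gave r = 0.439 (permutation p = 0.101) and rho = 0.221, and r was 0.182 without high-oleic animal 8 and -0.199 without the 2 farthest animals.

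**Figure D5:**
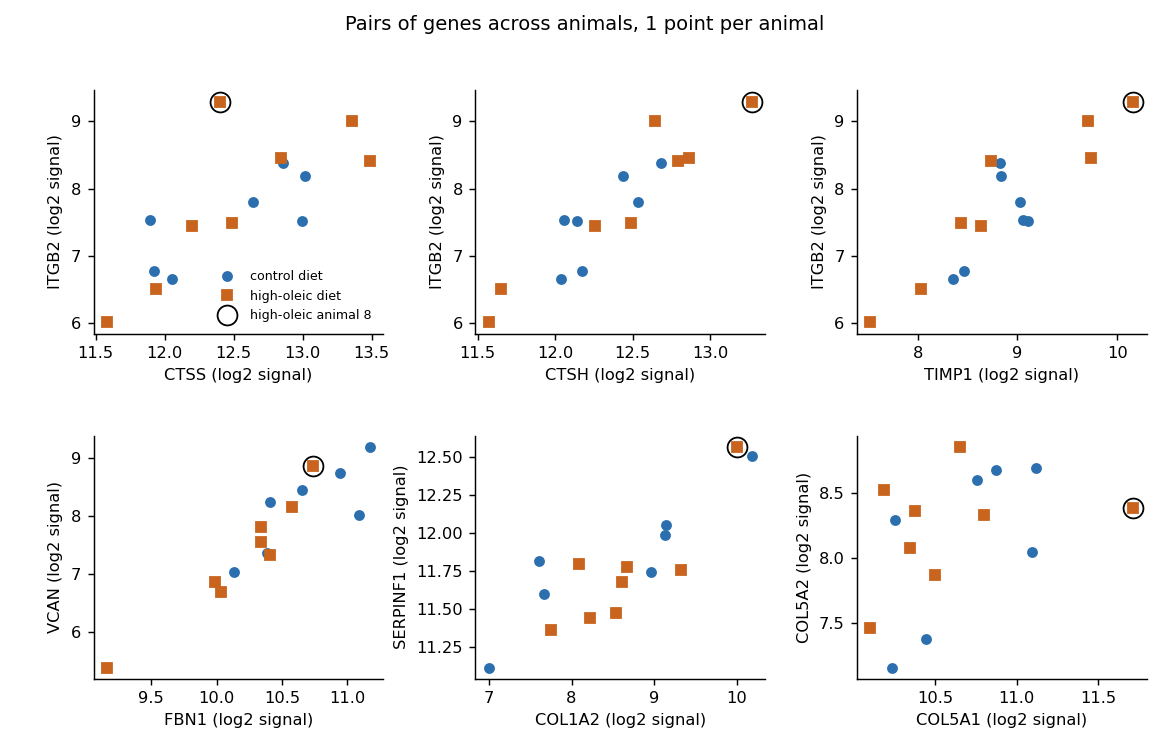
Log2 signal of 6 pairs of genes, 1 point per animal, with 7 control animals as circles, 8 high-oleic animals as squares and high-oleic animal 8 ringed. ITGB2 is higher in animals with higher CTSS, CTSH and TIMP1, VCAN in those with higher FBN1 and SERPINF1 in those with higher COL1A2, while COL5A1 and COL5A2 scatter more widely.

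Members were also fitted against marker scores with diet in the model. A score is the mean over a list's measured genes of the log2 signal minus the gene's mean. With the fibroblast score, 11 of 28 genes (39.3%) had a positive slope at a limma adjusted p under 0.05, against 7.02% of all probe sets outside the list. They were COL1A2, COL5A1, FBLN1, LOX, LOXL1, LOXL4, FN1, THBS3, VCAN, SERPINF1 and TIMP1. DPT and MFAP5 of this score are matrix proteins themselves. The share therefore cannot separate fibroblast content from matrix genes that vary together. The slope per score unit was 1.31 for LOXL1 (95% interval 0.82 to 1.81, limma adjusted p = 0.0037) and 1.27 for COL1A2 (95% interval 0.75 to 1.78). When high-oleic animal 8 was left out, limma called 0 members and 0.123% of the table, while the slopes were 1.31 for LOXL1 and 1.55 for COL1A2. The slope of THBS3 then fell from 1.57 to 0.74, that of LOXL4 from 1.36 to 0.81 and that of COL5A1 from 0.61 to 0.42. Without control animal 5 limma called 5 members.

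With the macrophage score (CD163, AIF1, MRC1, C1QA and C1QC, 5 of 11 listed), 4 of 28 genes had a positive slope past the adjusted test in limma, against 2.71% of the table. These were TNC, ITGB2, SERPINB1 and TIMP1, with slopes of 1.54, 1.11, 0.75 and 0.86 per score unit. CTSH had a slope of 0.54 and CTSS of 0.45, with limma adjusted p of 0.0984 and 0.317. ADAMDEC1, also known from macrophages, went the other way, with a slope of -0.74 (limma adjusted p = 0.354), and -0.89 without high-oleic animal 8. The score ran from -0.27 to 0.36 in control animals and from -1.13 to 1.16 in high-oleic animals, and every macrophage marker had a log2 signal of at least 6.36. With high-oleic animal 8 left out, limma called 0 of the members and 0.123% of the table, with slopes of 1.19 for TNC, 1.07 for ITGB2, 0.64 for SERPINB1 and 0.78 for TIMP1. Without high-oleic animal 3 or 4, the count was also 0.

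The members followed the spiked signal no more often than the table did, at 10.7% for positive and 7.14% for negative slopes. In limma with diet in the fit, COL1A2, COL5A1 and THBS3 had positive slopes on it past the adjusted test, 3 of 28, against 14.7% of all probe sets. POSTN and ADAM9 had negative ones, at -1.32 and -0.68 per log2 unit, against 7.93% of the table. Without high-oleic animal 8, limma called 0 members, and the slopes of POSTN and ADAM9 were -1.27 and -0.64. The slopes of COL1A2, COL5A1 and THBS3 went from 1.00, 0.56 and 1.30 to 0.93, 0.29 and 0.17.

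Of 136 other genes of matrix processing, TGF-beta signalling and adhesion 28 were measured, and limma called 0 for diet and 0 for live weight after adjustment. For diet 11 of the 28 had higher and 17 lower estimates in high-oleic animals (median difference -0.08). The smallest unadjusted p among the higher ones were those of VCL, vinculin, at 0.39, MFAP2, a microfibril protein, at 0.29 and TGFB1 at 0.26. Among the lower ones they were those of FLNA, filamin A, at -0.44, PCOLCE2, which aids procollagen cleavage, at -0.31 and the matricellular CYR61 at -0.31. At unadjusted p under 0.05 there were 0 for either fit. For live weight 22 slopes were positive and 6 negative, led by TGFB2 at 0.49 per 10 kg, the protease inhibitor A2M at 0.70 and the proteoglycan SDC1 at 0.59. FST, FLNA and MFAP2 led the negative slopes, at -0.24, -0.27 and -0.15.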

How the data were processed

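The authors deposited log2 values per probe set. GCOS and GCRMA are named per the submitters' processing notes, with parameters not given in the sources used here. That the scale is log2 was read from the values, which lay between 1.49 and 14.36 with array medians of 6.38 to 6.67. The number of arrays limits the precision. The table appeared filtered for variability, which was found from the values, so adjusted p-values refer to variable probe sets. Tests left out the 17 control probe sets, of which 7 gave the spiked signal. Names came from the platform table, and all 28 symbols matched RefSeq by gene ID.

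Diet and live weight were fitted on the whole table with the lmFit and eBayes functions of limma 3.58.1 (R 4.3.3). Tests were two-sided, adjusted by Benjamini-Hochberg and called at 0.05. Correlations used Python 3.11.15 and scipy 1.17.1, with 100000 permutations over all animals and all orders within a diet. The script was tested on simulated data. Alternatives were a filter on dim probe sets, other normalizations, variance models and array weights, live weight or the spiked signal as covariate, weight windows, the animal number as block, an exact test and leaving out animals. Named genes were the brightest of each role, the smallest p per direction (6 for diet, 4 for weight), the chosen pairs and the 6 closest pairs, and the remaining members were added after their values were seen.

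Members, role groups and lists were chosen with earlier results of these data known. The fits on marker scores and on the spiked signal were chosen after seeing the data.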

Additional observations from a re-analysis of the deposited data

Results flagged for a closer look

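Each of the 28 genes was checked in both diet groups for a highest or lowest animal set apart by a wide gap. Of these 56 checks 5 found one, and chance flags about 1 in 20. High-oleic animal 8 accounted for 4 of them. COL5A1 was 11.72 in that animal, while the other 7 high-oleic animals had a median of 10.37. LOXL4 was 9.33 against 6.28, THBS3 8.62 against 4.62 and SERPINF1 12.57 against 11.68. LOXL4 was also far from the group in control animal 5, at 8.42 where the other 6 control animals had a median of 6.07. The spiked signal of high-oleic animal 8 was 7.29 and its fibroblast marker score 1.31, the highest of the 15 animals in each case. Their part in these values was not tested.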

How the results depend on the processing

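No member passed the adjusted test for diet or live weight in limma under any alternative run, leaving out animals included, and the median correlation within role groups stayed between 0.343 and 0.586. For diet, the fit with the spiked signal as covariate called 1 probe set of the table. In animals of 109.5 to 118 kg the differences of ITGB2, CTSH, SERPINB1 and LOXL4 turned to -0.65, -0.26, -0.41 and -0.0864. With live weight as covariate SERPINB1 was -0.0264 and LOXL1 0.0733, with the spiked signal COL5A2 was -0.0232 and LOXL4 -0.16, and with array weights LOXL4 was -0.23. Leaving out single animals gave -0.0063 to 0.31 for SERPINB1, -0.0494 to 0.22 for COL5A2 and -0.21 to 0.53 for LOXL4. Animals with the same number correlated between -0.161 and 0.296, over 0.1 in 4 of 7 pairs, and 2 of 7 matched their own number best, so the animals were not treated as paired. Whether same-numbered animals were processed together was not tested. With the animal number as a block, which leaves out high-oleic animal 8, 0 members were called, SERPINB1 was -0.0063 and LOXL4 -0.21 for diet, and the slopes of THBS1 and SERPINB1 on weight were 0.44 and 0.0622. For live weight, the probe sets called were 6 within control animals, 1 without diet in the fit and 0 to 5 with single animals left out. The median slope of the members was -0.54 within high-oleic animals, -0.54 without the heaviest animal of each diet and -0.42 to 0.22 with single animals left out. Within high-oleic animals, high-oleic animal 8 included, the slopes of COL8A1, COL1A2, LOXL1 and ADAMTS1 turned to -0.0788, -0.54, -0.53 and 0.39. Without the heaviest animals COL8A1, COL1A2 and LOXL1 turned to -2.31, -0.33 and -0.54. With single animals left out, slopes ran from -0.58 to 1.52 for COL8A1, -0.26 to 0.80 for COL1A2, -0.31 to 0.70 for LOXL1 and -0.64 to 0.33 for ADAMTS1. The r of FN1 with ITGA5 was -0.0738 after quantile normalization, -0.0673 within control animals and -0.20 without the 2 farthest animals. After quantile normalization CTSS and ITGB2 gave an adjusted permutation p of 0.0535. The members following the macrophage score were 0 with quantile normalization or the spiked signal as covariate and 0 to 5 with single animals left out. For the fibroblast score they were 5, 0 and 0 to 15, and for the spiked signal 3 with quantile normalization, 3 with live weight and 0 to 7. The cause of these turns was not tested. Promoter motifs were not run, as no promoter sequences were used here.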
